A study of Homo sapiens with 12 samples.

Results

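ABC transporters are membrane proteins that use ATP to move drugs, lipids, bile pigments, peptides and vitamins across membranes, and their genes were followed here through 12 microarrays of a myeloma cell line. A gene was a member when its array symbol began with ABCA, ABCB, ABCC, ABCD or ABCG and a digit. The rule took 41 of the 19775 genes on the array, 4 of them pseudogenes, with 90 probe sets (groups of short probes that each report 1 gene). Each gene was read from its brightest probe set over the 12 arrays, and 27 of the 41 passed the filter, which asked for a value above the 40th percentile of its array in at least 3 arrays. That percentile lay at a log2 intensity of 4.86 to 4.95 and is called the filter level below.

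The 3 multidrug pumps are given apart. ABCB1 (P-glycoprotein), ABCC1 (MRP1) and ABCG2 (BCRP) expel many unrelated drugs from tumour cells, and P-glycoprotein has long been studied in myeloma because doxorubicin, vincristine and the proteasome inhibitor carfilzomib are among its substrates. Among the other members, the ABCA genes and ABCG1 move lipids, and the ABCD genes carry fatty acids or vitamin B12. Several ABCB proteins sit in mitochondria or lysosomes. BCL9 is a cofactor that helps beta-catenin drive transcription with the TCF/LEF factors of the Wnt pathway, and the series title gives it as a target of miR-30-5p.

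The cells were H929, an established line from a multiple myeloma, a tumour of plasma cells. There were 4 groups of 3 arrays. The shBCL9 cells were infected with a hairpin RNA against BCL9, and their control, the shGFP cells, with a hairpin against green fluorescent protein; both were flow-sorted for fluorescent cells. The miR-30 cells were transfected with the human miR-30 family, written as members a to e with no word on pooling, and their control received cel-miR-67, a worm microRNA. The labels do not say whether replicate arrays are separate cultures, and p-values may measure technical spread alone. RNA came from whole cultures or sorted populations, in which fewer cells with a transcript and less of it per cell cannot be told apart.

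The transfected agent is shown first, because its seed, the bases that pair with a target, is shared by the family. Below, bases 2 to 8 are in capitals in the RefSeq mature sequences (GRCh38.p14), and the 3 sequences printed have 1 seed among them. miR-30a lies at chr6:71403595-71403616 on the minus strand, miR-30e at chr1:40754371-40754392 on the plus strand, and miR-30c at chr1:40757300-40757322 on the plus strand and at chr6:71377003-71377025 on the minus strand.
hsa-miR-30a-5p: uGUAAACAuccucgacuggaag
hsa-miR-30c-5p: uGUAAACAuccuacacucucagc
hsa-miR-30e-5p: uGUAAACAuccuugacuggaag

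Promoter stretches of 3 members follow, because ABCG2 and ABCB1 were called in the miR-30 comparison and ABCC5 fell on all its probe sets with shBCL9. Each holds the 250 bases before a RefSeq transcription start (GRCh38.p14), all on the minus strand. ABCG2 is at chr4:88158910-88159159, ABCB1 at chr7:87600885-87601134 and ABCC5 at chr3:184017885-184018134. ABCG2 has 5 listed starts, ABCB1 has 2 and ABCC5 has 1; the window shown holds no other listed start and, among such windows, the most CG pairs. The motif searched was the TCF/LEF core CTTTGA or CTTTGT on both strands, and matches are in capitals. ABCC5 has 1 match, beginning 69 bases before the start, and these letters are not in the windows shown for ABCG2 and ABCB1. Of the other ABCG2 windows, 1 has a match, at chr4:88231627-88231876, and the other ABCB1 window has none. A match was present in 12 of 45 windows of 29 members (26.7%), against 22.8% of all 35116 windows of this length, and a match is a run of letters, not a measured binding site.
ABCG2 promoter: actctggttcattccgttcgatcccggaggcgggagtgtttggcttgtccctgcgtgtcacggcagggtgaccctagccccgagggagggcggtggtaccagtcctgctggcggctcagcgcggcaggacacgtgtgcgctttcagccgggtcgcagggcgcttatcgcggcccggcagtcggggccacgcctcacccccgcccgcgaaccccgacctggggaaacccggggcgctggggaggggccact
ABCB1 promoter: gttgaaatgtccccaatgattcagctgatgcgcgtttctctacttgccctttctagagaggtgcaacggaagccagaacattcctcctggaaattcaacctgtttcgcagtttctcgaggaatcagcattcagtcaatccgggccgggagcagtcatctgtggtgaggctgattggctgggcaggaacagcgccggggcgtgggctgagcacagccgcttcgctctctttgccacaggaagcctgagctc
ABCC5 promoter: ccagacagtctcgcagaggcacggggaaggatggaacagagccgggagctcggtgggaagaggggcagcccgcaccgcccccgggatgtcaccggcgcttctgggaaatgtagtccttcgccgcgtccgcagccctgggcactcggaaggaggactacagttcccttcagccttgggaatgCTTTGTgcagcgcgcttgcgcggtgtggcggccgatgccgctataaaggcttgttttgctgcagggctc

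All 10 plasma cell markers and both genes of the t(4;14) translocation, NSD2 and FGFR3, lay above the filter level on every array. Of the markers of other cell types, 3 of 5 for B cells, 2 of 6 for T and NK cells, 2 of 5 for myeloid, 2 of 3 for erythroid and 3 of 6 for stromal and epithelial cells were above the level in each group, and the same genes in all 4. BCL9 itself read 7.73, 7.61 and 7.85 in shBCL9 cells, against 7.88, 7.90 and 7.88 in shGFP cells, a log2 difference of -0.15 that missed the threshold (limma, adjusted p = 0.0874). In the miR-30 comparison the BCL9 difference was 0.14 (adjusted p = 0.269). The 18S rRNA control signal was 13.23 ± 0.02 in shBCL9 and 12.38 ± 0.07 in shGFP cells (SD, n = 3 each), and 12.64 ± 0.04 in miR-30 and 12.50 ± 0.05 in cel-miR-67 cells; the groups do not overlap in either pair (exact permutation p = 0.1, two-sided, the smallest that 3 against 3 can give). The 3′ to 5′ difference of ACTB, a sign of RNA length, was 1.67 ± 0.08 in shBCL9 and 1.30 ± 0.11 in shGFP cells (SD, n = 3 each), and 2.07 ± 0.01 in miR-30 and 2.16 ± 0.09 in cel-miR-67 cells. For ACTB the infected groups do not overlap (exact permutation p = 0.1), and the transfected groups do. The hybridisation spike-in signal was 10.97 ± 0.06 in shBCL9 and 11.22 ± 0.10 in shGFP cells, and the poly-A spike-in signal 6.36 ± 0.45 in shBCL9 and 7.01 ± 0.15 in shGFP cells (SD, n = 3 each), both without overlap (exact permutation p = 0.1 each, two-sided). In the transfected cells both spike-in signals overlap, at 11.17 ± 0.15 in miR-30 and 11.14 ± 0.01 in cel-miR-67 cells for hybridisation and 7.23 ± 0.11 in miR-30 and 7.38 ± 0.07 in cel-miR-67 cells for poly-A. The part of these signals in the results below was not tested; the family's calls in fits with 18S or ACTB as a covariate are given below.

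ABCG2, the breast cancer resistance protein that pumps mitoxantrone, topotecan and urate, moved in opposite directions in the 2 treatment comparisons. Its log2 intensity was 7.36, 7.21 and 7.23 in shBCL9 cells, against 8.05, 8.27 and 8.11 in shGFP cells. It was 5.37, 5.85 and 5.92 in miR-30 cells, against 5.26, 4.88 and 5.12 in cel-miR-67 cells. Every shBCL9 array lay below every shGFP array, and every miR-30 array above every cel-miR-67 array, with the first miR-30 array nearest to its controls and the cel-miR-67 arrays close to the filter level. The gene fell by 0.87 on the log2 scale with shBCL9 (SE 0.13, 1.83-fold, adjusted p = 0.000195), the largest fall among the 27 members. It rose by 0.63 with miR-30 (SE 0.13, 95% interval 0.34 to 0.92, 1.55-fold, adjusted p = 0.0178). Adjusted p-values here and below are from limma, by Benjamini-Hochberg over the 14725 genes tested, with 3 arrays a group.

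The fall of ABCG2 with shBCL9 was called in 24 of 25 alternative settings; with 18S as a covariate the value was -1.63 and the adjusted p 0.678. The miR-30 call was lost when any of 4 arrays was left out. The adjusted p was 0.0821 without miR-30 replicate 2 and 0.0622 without miR-30 replicate 3, and it was 0.0778 without cel-miR-67 replicate 2 and 0.0512 without cel-miR-67 replicate 3, at values of 0.53 to 0.65. Fitting only the 6 transfected arrays gave an adjusted p of 0.0556 and the 18S covariate gave 0.51 with an adjusted p of 0.312.

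ABCB1 encodes P-glycoprotein, the pump for which multidrug resistance was first described. Its log2 intensity was 4.74, 4.63 and 4.48 in miR-30 cells, against 5.03, 5.26 and 5.17 in cel-miR-67 cells. In the infected cells it was 3.76, 3.39 and 3.60 with shBCL9, against 3.37, 3.15 and 3.54 with shGFP. Only the 3 cel-miR-67 arrays lay above the filter level, so the other 9 values are those of a dim probe set. The gene was called lower with miR-30 (log2 difference -0.54, SE 0.11, 95% interval -0.78 to -0.29, adjusted p = 0.0188), and the groups do not overlap. It passed the filter only through the cel-miR-67 arrays, its highest group, so this test was made on a selected value, and no fold is given against arrays below the level. With no filter on dim genes the adjusted p was 0.0288. The difference with shBCL9, 0.23 (95% interval -0.02 to 0.48), missed the threshold (adjusted p = 0.122), and the shBCL9 and shGFP arrays overlap.

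The miR-30 call of ABCB1 was lost without miR-30 replicate 2 (-0.54, adjusted p = 0.0644) or 3 (-0.47, 0.0657), without cel-miR-67 replicate 2 (-0.48, 0.0817) or 3 (-0.53, 0.0635), and with the 18S covariate (adjusted p = 0.244). A probe set annotated to both ABCB4 and ABCB1, 2 genes of closely similar sequence, read 4.79, 4.84 and 4.83 in miR-30 cells, against 5.00, 4.89 and 4.78 in cel-miR-67 cells. These arrays overlap, and the difference was -0.07. The values lie near the filter level or below it, so they do not test the ABCB1 call. With shBCL9 the ABCB1 value passed the threshold without shBCL9 replicate 2 (0.33, adjusted p = 0.0415) or shGFP replicate 3 (0.32, 0.0481), and with array weights (0.39, 0.0103).

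ABCC1, or MRP1, exports glutathione conjugates and anthracyclines. Its log2 intensity was 8.33, 8.51 and 8.34 in shBCL9 cells, against 8.58, 8.64 and 8.58 in shGFP cells, and 8.33, 8.18 and 8.18 in miR-30 cells, against 8.27, 8.28 and 8.12 in cel-miR-67 cells. The shBCL9 arrays all lay below the shGFP arrays, and the transfected groups overlap. It fell by 0.20 with shBCL9 (SE 0.07, 95% interval -0.35 to -0.06, adjusted p = 0.028). With miR-30 the difference was 0.01 (95% interval -0.14 to 0.15, adjusted p = 0.964). The shBCL9 call was lost without shBCL9 replicate 1 (-0.18, adjusted p = 0.0981) or 3 (-0.18, 0.0913) and without shGFP replicate 2 (-0.18, 0.0918) or 3 (-0.22, 0.0502). It was also lost with further quantile normalization (-0.14, adjusted p = 0.0936), with the mean of its probe sets (-0.14, 0.134), with the ACTB covariate (-0.43, 0.0529) and with the 18S covariate (-0.45, 0.86). Its other probe set gave -0.08.

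**Figure D1:**
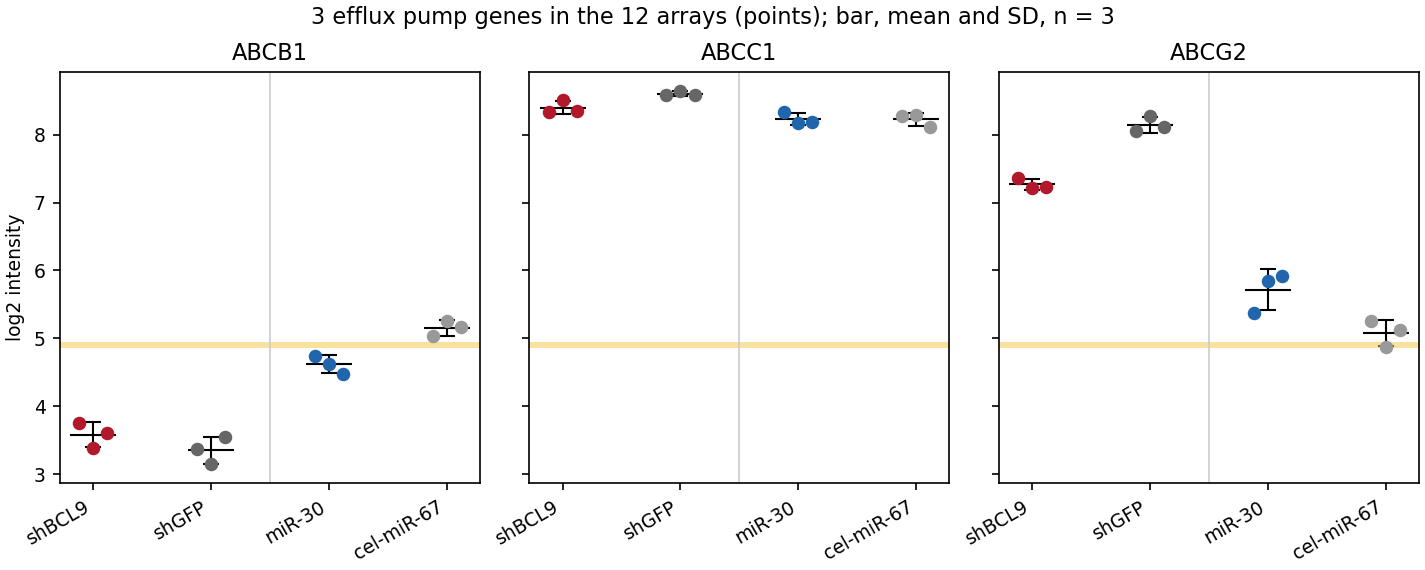
Log2 intensity of ABCB1, ABCC1 and ABCG2 on the 12 arrays; points are arrays, bars the mean and SD of 3, and the yellow band is the filter level of 4.86 to 4.95. ABCG2 is lower with shBCL9 than with shGFP and higher with miR-30 than with cel-miR-67, ABCB1 lies above the band on the 3 cel-miR-67 arrays alone, and ABCC1 stays between 8.12 and 8.64 on all 12.

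Across the family, 9 of the 27 members tested fell and 4 rose with shBCL9, while 14 did not pass the test. That is 33.3% lower and 14.8% higher, beside 22.9% lower and 18.7% higher of all genes tested. The median difference of the members was 0.00, against 0.03 for all genes, and the median size was 0.23, against 0.16. No member changed by 2-fold, and 280 of all 14725 genes were called with such a change. With the 18S signal as a covariate none of the 13 calls was made, and with the ACTB difference 7 members were called, 5 of them among the 13 (ABCA5, ABCA7, ABCA11P, ABCD4 and ABCG2). Nearly no gene of any kind was called in the 18S fit, so its count says nothing particular to the family. The shares of all genes called in both fits are given with the related lists below.

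Among the other exporters of the ABCC group, ABCC5 and ABCC4 differed in direction. ABCC5 (MRP5), an exporter of cyclic nucleotides, read 7.87, 7.77 and 7.77 in shBCL9 cells, against 8.46, 8.29 and 8.30 in shGFP cells. The groups do not overlap, and the gene fell by 0.55 (1.46-fold, adjusted p = 2.27e-05), with -0.81 and -0.39 on its other probe sets. Its promoter window above holds 1 match. Of the other members that fell and have listed windows, ABCA5, ABCA7, ABCB6 and ABCD4 have no match, while ABCD2 and ABCG2 have a match in at least 1 window. The window of ABCA1, which rose, has 1 match, and that of ABCC4, which also rose, has none. No link between matches and changes was tested. ABCC4 (MRP4), which exports cyclic nucleotides, prostaglandins and nucleoside drugs, read 7.96, 8.20 and 7.98 in shBCL9 cells, against 7.53, 7.51 and 7.70 in shGFP cells. It rose by 0.46 (1.38-fold, adjusted p = 0.00061) without overlap, but a second probe set gave -0.07, and the mean of its probe sets was not called. ABCC10 (MRP7), an exporter of taxanes, averaged 9.48 in both infected groups, a difference of 0.00 (95% interval -0.11 to 0.12).

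Of the lipid transporters, ABCA7 and ABCA5 fell, and ABCA1 and, on its brightest probe set, ABCG1 rose. ABCA7, a phospholipid transporter known as a risk gene of Alzheimer's disease, read 7.53, 7.62 and 7.68 in shBCL9 cells, against 8.27, 8.19 and 8.21 in shGFP cells. ABCA5, a lysosomal and endosomal lipid transporter, read 8.65, 8.65 and 8.60 in shBCL9 cells, against 9.11, 9.17 and 9.26 in shGFP cells. Both pairs of groups are apart by more than their spread. ABCA7 fell by 0.61 (SE 0.07, adjusted p = 1.75e-05) and ABCA5 by 0.54 (SE 0.06, adjusted p = 1.68e-05), and the other ABCA5 probe set gave -0.72.

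ABCA1, which loads cholesterol and phospholipid onto apolipoprotein A-I, read 10.09, 10.08 and 10.09 in shBCL9 cells, against 9.73, 9.73 and 9.92 in shGFP cells. It rose by 0.29 (adjusted p = 0.00379), and its other probe sets gave 0.39 and 0.37. The probe set at 0.37 averaged 4.82 in shBCL9 and 4.45 in shGFP cells, below the filter level. ABCG1, which passes sterols on to high-density lipoprotein, rose by 0.25 on its brightest probe set (adjusted p = 0.0303). Its other probe sets gave 0.18, -0.30 and -0.07. Those at -0.30 and -0.07 averaged 4.63 and 4.53 in shBCL9 cells, and 4.93 and 4.60 in shGFP cells. These means lie at or below the filter level, which both probe sets passed mainly through the transfected arrays. Restricted to plain probe sets, the value was -0.30 with an adjusted p of 0.023. It comes from the dim probe set at -0.30, so no direction is read from it. The ABCG1 call was also lost without shBCL9 replicate 3 (0.20, adjusted p = 0.11) or shGFP replicate 1 (0.16, 0.116) and with arrays centred on their medians (0.22, 0.0657). ABCA2, a lysosomal lipid transporter, differed by -0.17 (adjusted p = 0.128), with 0.05 and 0.10 on its other probe sets.

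Of the ABCB genes outside ABCB1, ABCB6 and ABCB5 were called. ABCB6, a porphyrin transporter, read 8.32, 8.25 and 8.25 in shBCL9 cells, against 8.61, 8.58 and 8.70 in shGFP cells, and fell by 0.36 (adjusted p = 0.000436). Its second probe set gave 0.16, and the mean of both was not called. ABCB5, known from melanoma cells, read 6.27, 6.26 and 6.19 in shBCL9 cells, against 5.97, 6.03 and 6.03 in shGFP cells. On this brightest probe set it rose by 0.23 (adjusted p = 0.00451). Its other probe sets lay above the filter level on no array. They gave 0.15, 0.12 and -0.13, and no direction is read from such dim values. ABCB10, a mitochondrial protein needed for haem synthesis in red cell precursors, differed by 0.14 (adjusted p = 0.154). ABCB8, also mitochondrial, differed by -0.14 (adjusted p = 0.0894), with 0.09 on its other probe set.

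Of the ABCD carriers, ABCD4 and ABCD2 fell, and ABCD3 differed by 0.05 (adjusted p = 0.629). ABCD4, which helps vitamin B12 out of lysosomes, read 7.11, 7.15 and 7.11 in shBCL9 cells, against 7.30, 7.39 and 7.46 in shGFP cells, a fall of 0.26 (adjusted p = 0.00149). ABCD2, a peroxisomal carrier of very long chain fatty acids, read 3.30, 3.48 and 2.86 in shBCL9 cells, against 3.89, 3.59 and 3.78 in shGFP cells. It fell by 0.54 (adjusted p = 0.00793), but all 6 of these arrays lie below the filter level, and the gene passed the filter through the transfected arrays. The pseudogene ABCA11P read 6.08, 6.04 and 5.97 with shBCL9, against 6.39, 6.44 and 6.43 with shGFP, and fell by 0.39 (adjusted p = 0.00251).

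**Figure D2:**
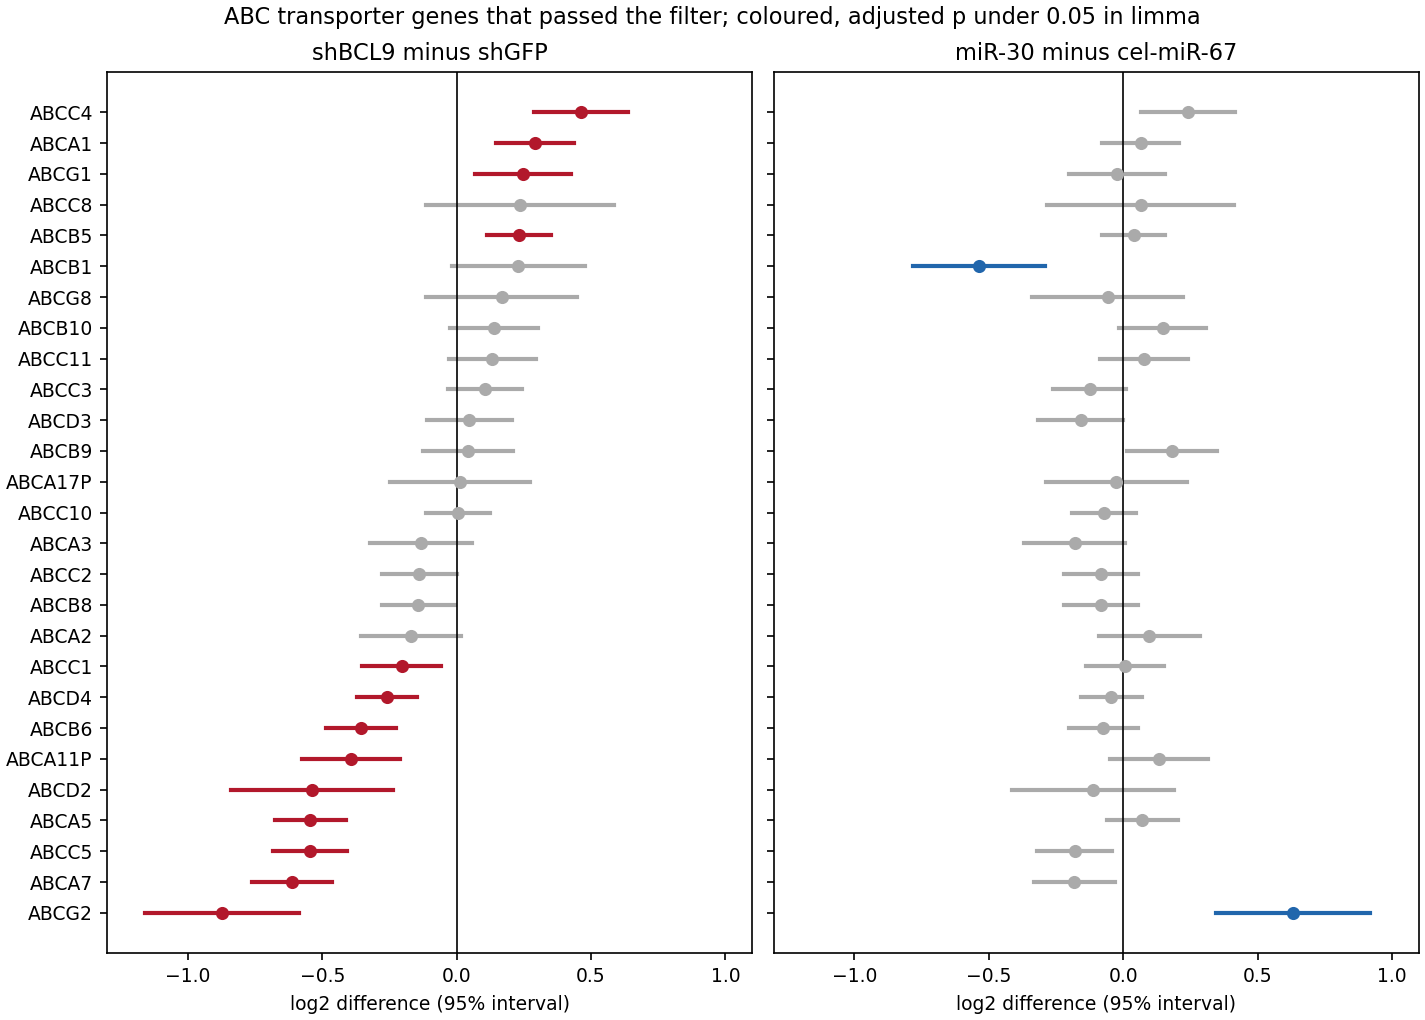
Log2 differences with 95% intervals for the 27 members that passed the filter, shBCL9 minus shGFP on the left and miR-30 minus cel-miR-67 on the right, in the order of the left panel; coloured points were called at an adjusted p under 0.05. With shBCL9 13 members were called, from ABCG2 at -0.87 to ABCC4 at 0.46, and with miR-30 ABCB1 and ABCG2 were called.

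Probe sets of 1 gene did not always go the same way. Of the 27 members, 14 had 2 or more probe sets above the filter. In 5 of the 14 (ABCA2, ABCB6, ABCB8, ABCC4 and ABCG1) at least 1 other probe set had the opposite sign with shBCL9. For ABCG1 such probe sets averaged at or below the filter level in the infected cells, and for ABCC4 close to it. With miR-30 there were 4 such members (ABCA2, ABCC3, ABCD3 and ABCG1). Each probe set covers a different stretch of its gene, usually near the 3′ end, and no difference between these probe sets was tested.

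**Figure D3:**
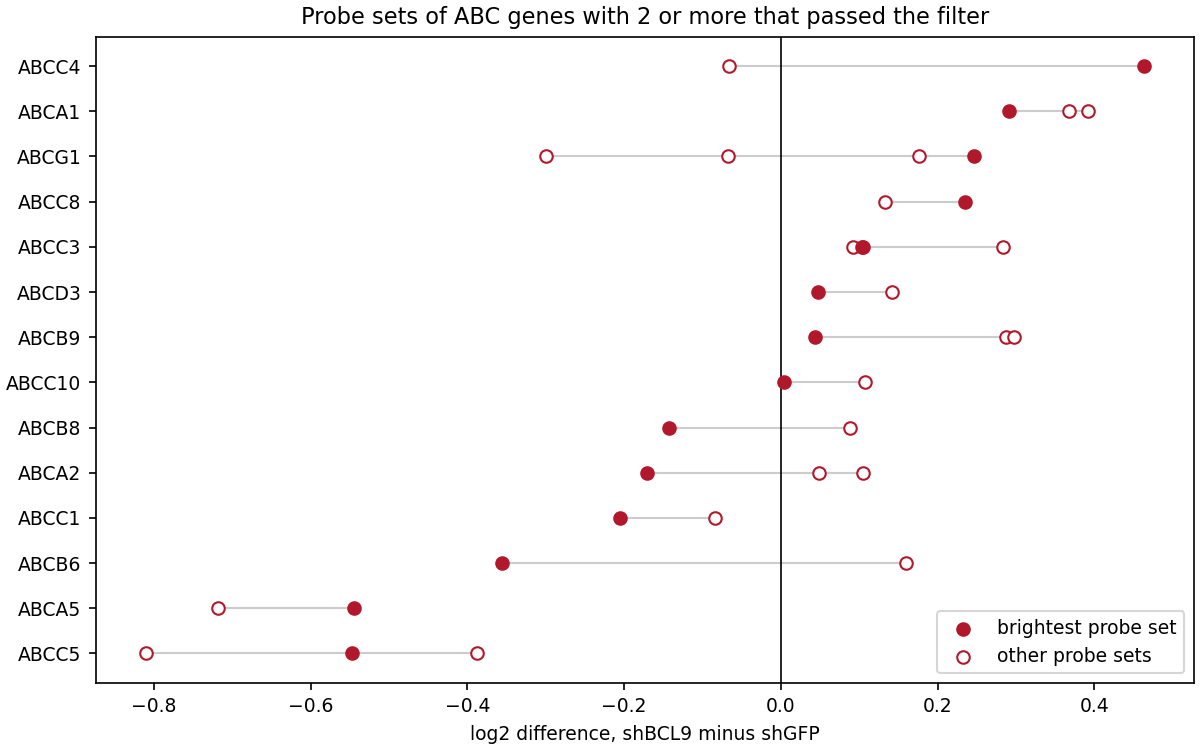
Log2 difference, shBCL9 minus shGFP, of each probe set above the filter for the 14 members with more than 1; filled points are the brightest probe set, which stands for the gene in the text, and open points the others. The 3 probe sets of ABCC5 and the 3 of ABCA1 keep 1 sign, while those of ABCG1 run from -0.30 to 0.25. The ABCG1 probe sets with a negative difference averaged at or below the filter level in the infected cells, as did 1 of ABCA1.

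With miR-30, 1 of the 27 members rose and 1 fell, ABCG2 and ABCB1, which is 3.7% each way. Of all genes, 2.34% were higher and 2.63% lower, so the members' share is close to the background, and the fall counted is that of ABCB1, which was tested only because its control arrays are high. A further quantile normalization moved the share of higher genes among all called to 58.3%, against 47.1% as deposited, and left the same members called. The members' median difference was -0.03 and that of all genes -0.02, and 7 members had an unadjusted p under 0.05. The share of all genes at that unadjusted threshold is not given, so nothing is read from this count. After ABCG2 and ABCB1 the next largest values were ABCC4 at 0.24 (adjusted p = 0.11), ABCB9, a lysosomal peptide transporter, at 0.18 (0.195), ABCA7 at -0.18 (0.155) and ABCC5 at -0.18 (0.127). ABCC5 read 7.45, 7.37 and 7.27 in miR-30 cells, against 7.50, 7.59 and 7.55 in cel-miR-67 cells, with -0.16 and -0.18 on its other probe sets; the groups do not overlap, though the test was missed. ABCC4 read 6.27, 6.32 and 6.28 in miR-30 cells, against 5.99, 5.97 and 6.19 in cel-miR-67 cells, also without overlap.

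ABCG2 was the member called in both treatment comparisons, 1 of 27, beside 2.76% of all genes, and its signs were opposite, as they were for 0.903% of all genes. The difference between the effects (miR-30 minus shBCL9) was tested directly and was called for 8 of the 27 members, beside 26.3% of all genes, so this share too is near the background. It was 1.505 for ABCG2 (SE 0.19, adjusted p = 8.43e-05) and -0.77 for ABCB1 (SE 0.16, adjusted p = 0.00379), whose values carry the limit given above. For ABCA5, ABCA7, ABCA11P, ABCB6, ABCC5 and ABCD4 it lay between 0.22 and 0.62, each gene having fallen with shBCL9 and missed the test with miR-30. For ABCC1 the difference was 0.21 (adjusted p = 0.122). These effects come from cells handled differently, one pair infected and sorted, the other transfected, and handling cannot be told apart from the agents.

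Between the controls 6 members were at least 2-fold apart, and under either treatment 0 were. Of all 14725 genes tested, 280 were called and at least 2-fold apart with shBCL9, and 0 with miR-30. The absence of such members under treatment is therefore nothing particular to the family. In shGFP against cel-miR-67 cells, 8 of 27 members were higher (29.6%) and 7 lower (25.9%), beside 28.4% and 33% of all genes. ABCB1 and ABCD2, both among the 7 lower, passed the filter only through transfected arrays, where they are high. Nothing is therefore read from the share of lower members. The 6 members at least 2-fold apart in the fit stand beside 10.5% of all genes. ABCB1 and ABCD2 are among these too, so nothing is read from that share either. The controls differ in infection and sorting, in transfection and in the agent, which cannot be told apart.

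ABCG2 was 8.32-fold higher in shGFP than in cel-miR-67 cells (log2 difference 3.06, SE 0.13, adjusted p = 4.9e-10), on average 8.14 ± 0.11 against 5.08 ± 0.19 (SD, n = 3 each). The 95% intervals of its treatment differences lie inside -1.16 to 0.92, and that of the control difference is 2.77 to 3.34. ABCB1 lay the other way, with the values given above: all 3 shGFP arrays are below the filter level and the gene passed it through cel-miR-67 alone, so neither a fold nor a test is read from this gap. The probe set shared with ABCB4 gave -0.64, but its shGFP arrays, at 4.52, 4.28 and 3.96, are also below the filter level. Nothing is read from that value either. ABCC1 differed by 0.38 (adjusted p = 0.00029). With the ACTB difference as a covariate 5 of the 15 control calls were left, that of ABCG2 among them and that of ABCC1 not, beside 11.3% of all genes called in that fit. The order of ABCG2 levels was shGFP, shBCL9, miR-30 and cel-miR-67, without overlap between neighbouring groups, and that of ABCB1 was cel-miR-67, miR-30, then shBCL9 and shGFP, which overlap.

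Of the remaining 4 members at least 2-fold apart, ABCG1 was 4.76-fold lower in shGFP cells, with 7.59, 7.81 and 7.91, against 10.07, 10.04 and 9.96 in cel-miR-67 cells. All 4 of its probe sets were lower, by 1.83 to 2.90 on the log2 scale. Those at -2.57 and -2.90 averaged 4.93 and 4.60 in shGFP cells, at or below the filter level. ABCC4 was 2.89-fold and ABCB9 2.77-fold higher in shGFP cells. ABCD2 read 3.89, 3.59 and 3.78 in shGFP cells, against 5.34, 5.00 and 5.12 in cel-miR-67 cells; the shGFP arrays are below the filter level, which the gene passed through the transfected arrays, and no fold is given. Without either covariate, smaller gaps were called for ABCA1 (-0.89), ABCB6 (0.91), ABCC5 (0.81), ABCA11P (0.40), ABCA7 (-0.37), ABCC2 (-0.37), which exports conjugated bilirubin in the liver, ABCA2 (0.28) and ABCA3 (-0.23), the lipid transporter of lung surfactant.

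**Figure D4:**
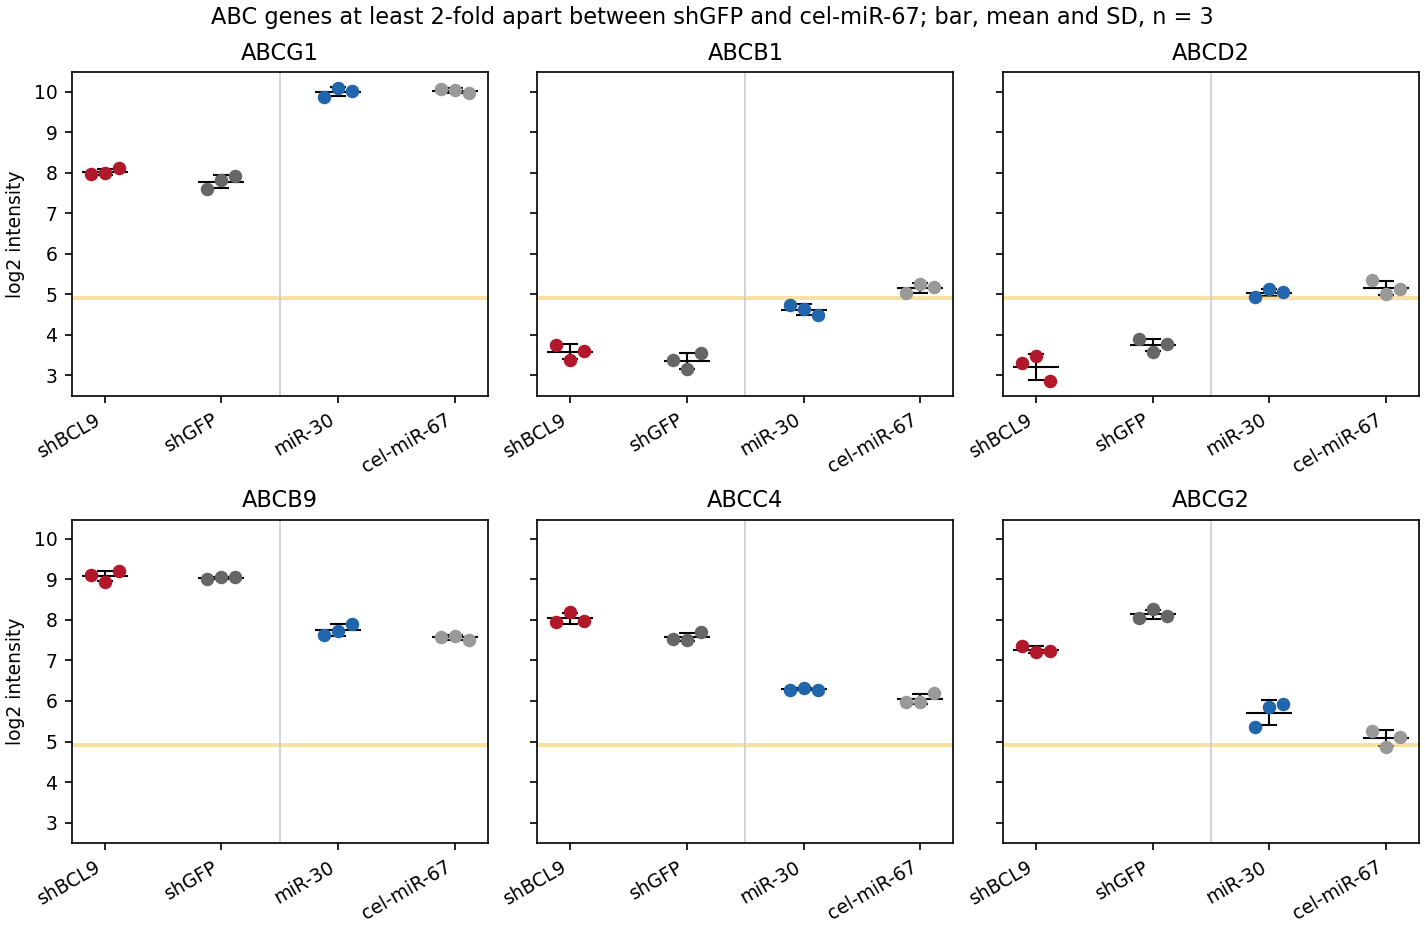
Log2 intensity on the 12 arrays of the 6 members at least 2-fold apart between shGFP and cel-miR-67; points are arrays, bars the mean and SD of 3, the grey line divides infected from transfected cells and the yellow band is the filter level. For ABCG1, ABCB1 and ABCD2 both infected groups lie below both transfected groups, and for ABCB9, ABCC4 and ABCG2 they lie above.

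The brightest of the members' probe sets, by the mean over 12 arrays, belonged to ABCA1 (10.33), ABCB10 (9.47), ABCC10 (9.41), ABCA5 (9.04) and ABCG1 (8.95); brightness depends on the probes, so these values rank no genes. Of the 41 members, 23 were above the filter level on all 12 arrays, 13 on none and 5 on some. Of those 5, ABCC2 was above it on 10 arrays, ABCG8, a sterol transporter of gut and liver, on 9, ABCD2 on the 6 transfected arrays, ABCB1 on 3 and ABCG4 on 2. The 14 that did not pass were ABCA4, ABCA6, ABCA8, ABCA9, ABCA12, ABCA13, ABCB4, ABCB11, ABCC6P1, ABCC9, ABCC12, ABCC13, ABCG4 and ABCG5, and no change is given for them. They include the retinal ABCA4, the skin lipid transporter ABCA12, the bile salt pump ABCB11 and ABCG5, the partner of ABCG8.

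Genes that work beside the transporters were counted in 9 lists, and the counts stand beside 18.7% higher and 22.9% lower of all genes with shBCL9, and 2.34% and 2.63% with miR-30. With shBCL9 the 18S covariate left 0.0747% of all genes called and the ACTB covariate 20.1%, and the lists were not refitted with them. Of 6 measured ABC proteins outside the symbol rule (TAP1, TAP2, ABCE1, ABCF1, ABCF2 and ABCF3), 0 were called by limma in either treatment comparison. At an unadjusted p under 0.05 there were 1 with shBCL9 and 4 with miR-30. The share of all genes at that unadjusted threshold is not given. Nothing is therefore read from these counts or from the unadjusted counts of the lists below. On their brightest probe sets, the largest value with shBCL9 was -0.14 for TAP1, a subunit of the antigen peptide transporter (adjusted p = 0.119). With miR-30 it was -0.22 for the translation factor ABCF1 (adjusted p = 0.0638). ABCF2 differed by -0.13 with shBCL9 on its brightest probe set, and by -0.01, 0.32, 0.37 and 0.38 on its others. With miR-30 these others ran from -0.58 to 0.03. In shGFP against cel-miR-67 cells 3 were higher and 1 lower.

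Glutathione synthesis and conjugation supplies the cargo of ABCC1 and ABCC2, and 5 of its 18 genes rose and 7 fell with shBCL9 (median -0.11). GCLM, a subunit of the rate-limiting enzyme, averaged 7.74 in shBCL9 and 8.28 in shGFP cells (-0.54, adjusted p = 7.85e-06), and GSTP1, a transferase, 10.79 in shBCL9 and 11.22 in shGFP cells (-0.43, adjusted p = 0.000133). GSTA4 fell by 1.19 (adjusted p = 1.24e-06). GSTM3 fell by 1.03 (adjusted p = 6.43e-06), with 0.29 on another probe set. The GSTM3 mean was 4.80 in shBCL9 cells, below the filter level, and 5.83 in shGFP cells, so the fall ends at a dim value. With miR-30 0 of the 18 were called by limma, and 4 had an unadjusted p under 0.05.

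Among solute carriers that take up drugs, 7 of 15 rose and 3 fell with shBCL9 (median 0.13), and with miR-30 limma called 0, with 3 at an unadjusted p under 0.05. The ergothioneine carrier SLC22A4 averaged 7.63 in shBCL9 and 6.83 in shGFP cells (0.81, adjusted p = 4.51e-07), and SLC3A2, the heavy chain of amino acid exchangers, rose by 0.39. SLCO1A2 fell by 0.76 and SLCO3A1 by 0.38, both carriers of organic anions. The SLCO1A2 mean was 4.76 in shBCL9 cells, below the filter level, and 5.52 in shGFP cells. For LXR targets and cholesterol handling 3 of 12 rose and 3 fell with shBCL9, and with miR-30 limma called 0, with 1 at an unadjusted p under 0.05. SREBF1, a master regulator of lipid synthesis, averaged 9.31 in shBCL9 and 8.18 in shGFP cells (1.13, adjusted p = 2.56e-07), and the lipoprotein receptor SCARB1 rose by 0.62. The lysosomal sterol carrier NPC2 fell by 0.60 and PLTP, which transfers phospholipid, by 0.39.

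Of 19 transcriptional regulators of ABC genes, 3 rose and 3 fell with shBCL9, and 2 fell with miR-30. HIF1A, the hypoxia factor, rose by 0.61 with shBCL9 (adjusted p = 1.9e-06) and NFYC by 0.24, while the acetyltransferase KAT2B fell by 0.29. RXRA, the partner of LXR and of the drug receptor PXR, fell by 0.43 with shBCL9 (adjusted p = 0.000314), though another probe set gave 0.00, and by 0.28 with miR-30 (adjusted p = 0.0362), where that probe set gave -0.11. KEAP1, the inhibitor of NRF2, averaged 9.53 in miR-30 and 9.74 in cel-miR-67 cells (-0.21, adjusted p = 0.0201), while with shBCL9 it was called higher (0.20, adjusted p = 0.00366).

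In the peroxisomal list 2 of 14 genes rose and 5 fell with shBCL9. PEX10 rose by 0.28 and PEX3 by 0.20, the last with -0.02 on another probe set, while catalase (CAT) fell by 0.31 and PEX2 by 0.30. With miR-30, PEX6 fell by 0.31 (adjusted p = 0.0472). Of 14 genes of MHC class I peptide loading 3 rose and 5 fell with shBCL9. PSMB8, a subunit of the immunoproteasome, rose by 0.42 and the chaperone PDIA3 by 0.40, with -0.03 and -0.20 on its other probe sets, while HLA-B and HLA-E each fell by 0.31. The other HLA-E probe sets gave -0.22 and -1.24. Of 22 genes of iron-sulphur cluster and haem synthesis 4 rose and 7 fell, among them the haem enzymes CPOX, down by 0.67, and ALAD, down by 0.26 with 0.18 on another probe set, and TMEM14C and ISCA2, each down by 0.31. PPOX, of the same list, was not called on its brightest probe set (0.04), while its other probe sets gave -2.25 and -1.65. With miR-30 limma called 0 genes of MHC class I loading, 2 having an unadjusted p under 0.05, and 0 of haem and iron-sulphur synthesis, with 5. Neither potassium channel partner of ABCC8 and ABCC9 passed the filter. In shGFP against cel-miR-67 cells, where 28.4% of all genes were higher and 33% lower, glutathione genes were 8 higher and 4 lower, solute carriers 2 and 6, regulators 2 and 12, LXR and cholesterol genes 2 and 4, peroxisomal genes 3 and 7, MHC class I genes 1 and 11, and iron-sulphur and haem genes 9 and 8.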

How the data were processed

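RNA was extracted with Trizol and hybridised to 54675 probe sets. The authors deposited log2 intensities made with RMA in affy, per the submitters' processing notes; versions are not given in the sources used here. Array medians ran between 5.46 and 5.53, so no further normalization was applied. Precision is limited by the number of arrays. Of the probe sets, 41097 had 1 symbol in the platform annotation.

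With limma 3.58.1 under R 4.3.3 (lmFit, eBayes), 4 group means were fitted jointly over the 12 arrays for 14725 genes, each by its brightest probe set. Calls needed a Benjamini-Hochberg adjusted p under 0.05. The pipeline was tested on simulated data. Alternatives changed the filter, probe set, scaling, arrays, weights, variance model, block, threshold and quality covariates. Figures used Python 3.11.15 and matplotlib 3.10.9.

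The members, related lists and marker lists were chosen with earlier results of these data known. The text names ABCB1, ABCC1 and ABCG2, other members called with either treatment, the 5 brightest, those whose probe sets differ in sign, those below the filter, BCL9, and up to 4 called genes per list and treatment. ABCB9, ABCC2, ABCA3, ABCD3, ABCF1, TAP1, TAP2, ABCE1, ABCF2, ABCF3, ABCC8, ABCG8 and PPOX were named after their values were seen.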

Additional observations from a re-analysis of the deposited data

Results flagged for a closer look

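The effects of the 2 treatments, each against its own control, differed for 8 members by limma's test of the difference (miR-30 minus shBCL9). The difference was 1.505 for ABCG2 (adjusted p = 8.43e-05), 0.62 for ABCA5 (0.000235), 0.53 for ABCA11P (0.00607), 0.43 for ABCA7 (0.00633), 0.37 for ABCC5 (0.01), 0.28 for ABCB6 (0.0265) and 0.22 for ABCD4 (0.0449), and -0.77 for ABCB1 (0.00379), which lay above the filter level on the 3 cel-miR-67 arrays alone. ABCG2 fell with shBCL9 and rose with miR-30, ABCB1 was called only with miR-30, and the other 6 only with shBCL9. ABCG2 kept this call in 23 of 24 alternatives. ABCB1 kept it in 20 of 22, but these reuse values that passed the filter only through its highest group, so that count is no support for the call. The infected and transfected cells were handled differently, and 18S rRNA and ACTB signals differed between groups; their part was not tested. The 18S covariate ended both calls, and the ACTB covariate that of ABCB1.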

How the results depend on the processing

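Leaving out 1 array at a time gave 11 to 15 called members for shBCL9 minus shGFP, 0 to 3 for miR-30 minus cel-miR-67, 6 to 8 for the difference of the effects and 14 to 16 for shGFP minus cel-miR-67. The 18S rRNA covariate, which separates shBCL9 from shGFP arrays completely, left 0 members called with shBCL9 and 0 with miR-30 and 0 for the difference, with 0.0747%, 0.38% and 0.129% of all genes called. The ACTB covariate, which also separates shBCL9 from shGFP arrays completely, left 7 with shBCL9, 3 for the difference and 5 between controls. The shares of all genes called in that fit with shBCL9 and between controls are given above. Shares of all genes are not given for the difference in that fit, for left-out arrays or for the replicate block. Those counts stand only beside the members called in the main fit. For miR-30, 1 member was called above the 60th percentile, with the mean of all probe sets and with only 6 arrays, and 0 at an adjusted p under 0.01; the mean of probe sets gave 5 for the difference. Replicate numbers gave correlations of 0.05 to 0.23 between same-numbered arrays, not all above 0.1, and so do not pair them; with the replicate block 14 members were called with shBCL9, 1 with miR-30, the call of ABCG2 being lost (0.63, adjusted p = 0.0609), and 7 for the difference, and the block could not be fitted between controls. Signs reversed for ABCC1 with miR-30 (-0.00813 after centring, -0.0237 with array weights, -0.0322 with 18S, and -0.0459 to 0.0377 over left-out arrays), for ABCG1 with shBCL9 (-0.30 on plain probe sets, -0.000334 with ACTB, -0.77 with 18S), and with 18S for ABCA1 (-0.0597) and ABCC5 (0.21). The plain ABCG1 probe set averaged at or below the filter level in the infected cells. Of 557 values of single genes under alternatives, 494 kept sign and side of the threshold, 50 lost the call, 3 gained one and 10 reversed. The causes were not tested. With 3 arrays a group, exact permutation cannot go below 0.1.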
